A study of Mus musculus with 4 samples.

Results

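Macrophages and neutrophils are blood-derived phagocytes that live beside the gut epithelium and enter it in inflamed tissue. The set described here holds 9 marker genes of these cells, chosen by name: the complement chains C1qa, C1qb and C1qc, the cytokine gene Il1b, the calprotectin subunits S100a8 and S100a9, the adaptor gene Tyrobp, the receptor gene Csf1r and the lysozyme gene Lyz2. Probes were matched by the platform's gene symbol or a synonym of it. Of the 9 genes, 8 were matched, each by 1 probe, among 16390 genes named on the array. No named probe was matched to Lyz2, which is not analysed here.

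The data are 4 one-colour arrays, 1 for each sample of cells sorted from mouse small intestine. All mice were male and carried the Dclk1CreERT2/+ genotype, which places a drug-inducible Cre recombinase at the gene of Dclk1, a kinase that marks tuft cells (rare chemosensory epithelial cells). The normal samples came from mice of that genotype alone, aged 26 weeks, with 1 mouse for Dclk1- normal and 2 pooled mice for Dclk1+ normal. The tumor samples came from Dclk1CreERT2/+; ApcMin/+ mice, whose second allele truncates Apc and gives rise to intestinal adenomas, with 1 mouse aged 17 weeks for Dclk1- tumor and 7 pooled mice older than 16 weeks for Dclk1+ tumor. Only for Dclk1+ tumor cells do the labels describe the gate, which was GFP fluorescence, and no label mentions a step that removed blood cells. With 1 array a group, no difference could be tested or set against a spread between replicates, and each is one between 2 arrays. Age and histology cannot be told apart between tumor and normal samples, nor can the number of mice pooled and the sort.

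In macrophages, the C1qa, C1qb and C1qc chains assemble into C1q, the recognition part of the first complement complex. Csf1r is the receptor for colony-stimulating factor 1, on which most tissue macrophages depend, and Tyrobp (DAP12) carries the activating signal of myeloid receptors such as Trem2. S100a8 and S100a9 pair into calprotectin, an abundant metal-binding protein of neutrophil cytosol, and Il1b encodes interleukin 1 beta, which activated monocytes and macrophages release. Stressed epithelium can also make calprotectin, so these genes are not markers of a single cell type in every setting.

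Levels below are the normalised intensities of the authors' deposited table (a linear scale with the median of the listed probes near 25 on each array), and differences are on the log2 scale after background correction with an offset and quantile normalization of the spot intensities. The offset makes differences of dim genes smaller. A gene was counted as above background on an array where its spot exceeded the mean of the blank spots by more than 2 SD, which held for 63.3% to 70.9% of probes, and a difference was called where it was at least 2-fold. In the authors' values the arrays are not level with each other. Their median log2 difference over all genes was 0.35 for Dclk1+ minus Dclk1- in tumor and 0.27 in normal, and it was -0.40 and -0.50 for tumor minus normal in Dclk1+ and Dclk1- cells. After quantile normalization it was between -0.03 and 0.01, and scaling to the 75th percentile gave 0.13 and 0.14 for the sorts in tumor and normal. All 17 epithelial genes on the array were above background in each of the 4 samples. Of the tuft cell genes above background, 13 of 17 in tumor and 16 of 18 in normal were at least 2-fold higher in the Dclk1+ sample, and none was 2-fold lower. Dclk1 itself, the sorted gene, was higher in the Dclk1+ sample of each tissue, at 61.8 against 9.49 in tumor and 736 against 180 in normal. Its log2 difference was 0.69 in tumor, under 2-fold, and 1.41 in normal, and Dclk1- normal had a higher Dclk1 level than Dclk1+ tumor.

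The main pattern was shared by most members. Of the 7 members above background in all 4 samples, 6 had their highest signal in Dclk1- tumor and their lowest in Dclk1- normal, with the Dclk1+ samples in between (C1qa, C1qb, C1qc, Il1b, S100a8 and Tyrobp). The same order was found for 7.11% of the 9635 genes above background on all 4 arrays. The order was picked after the members' values were seen, so this share describes it and is no test. Csf1r did not follow it. Nor can S100a9 be placed in it, because both of its normal samples were not above background. Summed over the 8 genes, the normalised intensity was 3979 in Dclk1- and 1670 in Dclk1+ tumor cells, then 568 in Dclk1- and 1675 in Dclk1+ normal cells. C1qb alone gave 1813, 778, 230 and 877 of these sums in that order, and Il1b 805, 242, 21.9 and 240. The sums therefore lean on these genes. In sorted bulk samples, fewer cells of a type and less RNA per cell cannot be told apart.

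**Figure D1:**
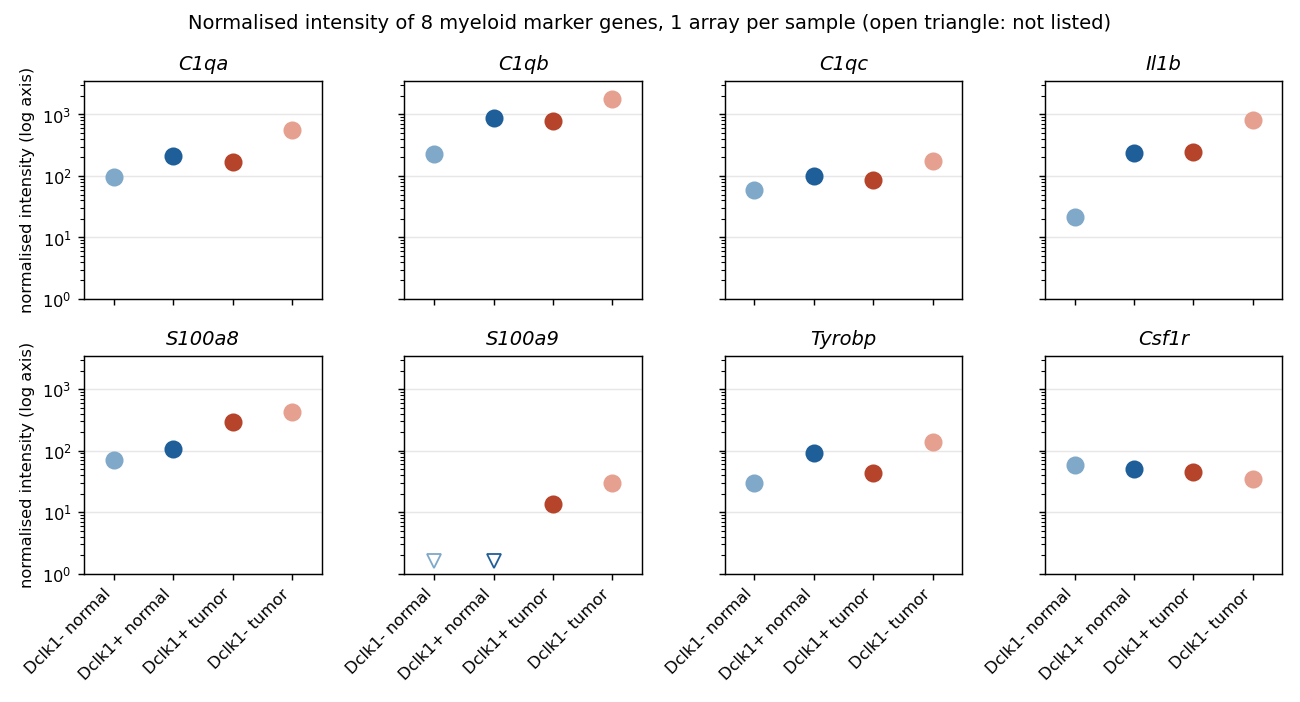
Normalised intensity (authors' deposited values, log axis) of the 8 myeloid marker genes in the 4 samples, 1 array and so 1 point per sample, with an open triangle, drawn at an arbitrary height, where the table lists no value. For 6 genes the Dclk1- tumor point is the highest and the Dclk1- normal point the lowest, while Csf1r runs the other way within a narrow range (34.4 to 58.2).

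The complement C1q chains showed this order at all 3 genes. C1qb had a normalised intensity of 1813 in Dclk1- and 778 in Dclk1+ tumor cells, then 230 in Dclk1- and 877 in Dclk1+ normal cells. Its level in Dclk1- tumor was thus well apart from the rest, and both Dclk1+ samples were close to each other. C1qa stood at 569, 168, 95.3 and 211 in the same sample order. For C1qc the levels were 173, 84.6, 60.2 and 102. On the log2 scale Dclk1- tumor minus Dclk1- normal was 2.94 for C1qb (7.68-fold), 2.22 for C1qa (4.66-fold) and 1.05 for C1qc (2.07-fold). Dclk1+ minus Dclk1- was negative in tumor and positive in normal for each chain: the tumor differences were -1.43, -1.71 and -0.78 for C1qb, C1qa and C1qc, and the normal ones 1.32, 0.64 and 0.32. Each chain is read by a single probe, so no second probe of the gene checks these sizes.

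C1qb and C1qc lie on chromosome 4, and S100a8 and S100a9 on chromosome 3. The promoters of 1 gene from each of 3 roles are shown. They are those of C1qb, Il1b and S100a8, the member with the widest range over the 4 arrays in each role. The 200 bases before the start are from RefSeq (GRCm38.p6), written along the gene's own strand: C1qb at chr4:136886201-136886400, minus strand, Il1b at chr2:129371140-129371339, minus strand, and S100a8 at chr3:90668871-90669070, plus strand. Capitals mark matches to GAGGAA on either strand, the core of sites for PU.1 and other ETS factors, or to TATAAA, the TATA box. On the opposite strand GAGGAA reads TTCCTC.
C1qb: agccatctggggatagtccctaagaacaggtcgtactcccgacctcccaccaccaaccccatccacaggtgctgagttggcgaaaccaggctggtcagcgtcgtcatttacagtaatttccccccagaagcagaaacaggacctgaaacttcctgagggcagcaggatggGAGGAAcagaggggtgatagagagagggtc
Il1b: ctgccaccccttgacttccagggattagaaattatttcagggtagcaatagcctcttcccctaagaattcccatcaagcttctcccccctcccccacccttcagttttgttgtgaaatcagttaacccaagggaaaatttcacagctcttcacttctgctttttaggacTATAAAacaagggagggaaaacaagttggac
S100a8: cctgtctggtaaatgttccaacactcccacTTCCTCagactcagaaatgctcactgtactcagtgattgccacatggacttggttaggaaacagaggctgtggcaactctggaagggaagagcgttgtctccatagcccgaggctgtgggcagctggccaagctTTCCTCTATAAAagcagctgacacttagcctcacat

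The search covered 250 bases before and 50 bases after the start, on both strands, for GAGGAA, TTGCNNAA (C/EBP), TGANTCA (AP-1) and TATAAA, in the 6 of 9 members with a promoter kept from the table. For the members, entries on a single chromosome, on which none of these 6 lies, were left out. GAGGAA was found in C1qb, from -30 to -25, in C1qc and at 2 places in S100a8 (from -170 to -165 and from -36 to -31), against 28.3% of all 32851 promoters in the table. TATAAA was found in Il1b (from -31 to -26), in S100a8 (from -30 to -25, directly after the second GAGGAA match without overlap) and at the start of S100a9, against 13.6% of all promoters. TTGCNNAA matched S100a9 and 10.8% of all promoters, and TGANTCA matched none of the 6, against 7.81% of all. Lyz2 held none of the 4 motifs in this window. These are matches of letters and were not tested as binding sites.

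Il1b had the widest range of the members, 3.58 on the log2 scale. Its normalised intensity was 805 in Dclk1- and 242 in Dclk1+ tumor cells, then 21.9 in Dclk1- and 240 in Dclk1+ normal cells. Both Dclk1+ samples were nearly equal (log2 difference 0.12, tumor minus normal, and -0.49 with local background subtracted), and the Dclk1- samples lay on opposite sides of them. Dclk1- tumor exceeded Dclk1- normal 12.0-fold on the log2 scale used here and 36.7-fold in the authors' values, in which dim genes are not compressed. Within tumor the Dclk1+ sample was lower by a log2 difference of -1.83 (3.56-fold), and within normal it was higher by 1.63 (3.10-fold, and 10.9-fold in the authors' values).

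Genes that act with interleukin 1 beta did not share its pattern as a list. Of 21 interleukin 1 pathway genes on the array, 16 were above background in at least 1 of the Dclk1- samples; 2 of these were at least 2-fold higher in tumor and 2 lower, with a median of -0.05. The decoy receptor gene Il1r2 was higher in Dclk1- tumor (87.0, against 8.82 in Dclk1+ tumor, 12.6 in Dclk1+ normal and not listed in Dclk1- normal). Pycard, the inflammasome adaptor, was highest in Dclk1- normal (6663, against 356 in Dclk1+ normal, 2369 in Dclk1- tumor and 2175 in Dclk1+ tumor). Il18, a related cytokine made by gut epithelium, stood at 3260 in Dclk1- normal and 162 in Dclk1+ normal, a log2 difference of -4.03, with 2356 and 1803 in Dclk1- and Dclk1+ tumor. Il33, an alarmin cytokine, had its lowest level in Dclk1+ normal (8.52, against 280 in Dclk1- normal, 956 in Dclk1- tumor and 1071 in Dclk1+ tumor). Nlrp3, the inflammasome sensor, was above background in Dclk1- tumor alone (7.86), close to the limit.

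Of the calprotectin genes, S100a8 separated tumor from normal more than it separated the sorts. S100a8 measured 418 in Dclk1- and 295 in Dclk1+ tumor cells, then 71.9 in Dclk1- and 105 in Dclk1+ normal cells, so that both tumor samples lay above both normal ones. Tumor minus normal was 2.04 in Dclk1- cells (4.11-fold) and 1.15 in Dclk1+ cells (2.21-fold) on the log2 scale. Between the sorts S100a8 differed by less than 2-fold in either tissue, at -0.67 in tumor and 0.23 in normal. S100a9, which encodes its partner, was listed at 30.3 in Dclk1- tumor and 13.6 in Dclk1+ tumor and was not above background in either normal sample. It was therefore at least 1.46-fold higher in tumor than in normal for Dclk1- cells and at least 1.16-fold for Dclk1+ cells. These bounds are measured up to the dimmest signal counted as above background, and the probe was dim throughout.

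Other S100 genes had patterns of their own. Of 12 further family members above background, 3 were 2-fold higher in Dclk1- tumor than in Dclk1- normal and none was lower. S100a6, a calcium-binding protein of proliferating cells, measured 6333 in Dclk1- and 3384 in Dclk1+ tumor cells, then 1216 in Dclk1- and 48.3 in Dclk1+ normal cells. S100g, the intestinal calcium-binding protein calbindin-D9k, was at 23400, 11090, 5287 and 264 in that order. For both, the lowest sample was Dclk1+ normal, not Dclk1- normal. S100a1 followed the Dclk1 sort instead, at 2959 and 4690 in Dclk1+ tumor and normal against 254 and 198 in Dclk1- tumor and normal.

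Tyrobp, the signalling adaptor, repeated the order of C1qa and C1qc. It measured 136 in Dclk1- and 44.0 in Dclk1+ tumor cells, then 30.0 in Dclk1- and 90.2 in Dclk1+ normal cells. Dclk1- tumor exceeded Dclk1- normal by 1.18 on the log2 scale (2.27-fold). Dclk1+ tumor was lower than Dclk1- tumor by -0.98, just under 2-fold, and Dclk1+ normal was higher than Dclk1- normal by 0.62.

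Among genes whose products work with Tyrobp or with the related adaptor Fcer1g, several shared the high signal in Dclk1- tumor. Trem2, a lipid-sensing receptor that signals through Tyrobp, was at 89.3 in Dclk1- tumor and 28.0 in Dclk1+ tumor, and at 4.65 and 4.91 in Dclk1- and Dclk1+ normal. Its tumor minus normal difference was 1.21 in Dclk1- cells. Fcer1g itself, the gamma chain of Fc receptors, stood at 816, 237, 91.8 and 197 with the samples in the same order. Plcg2 and Ptpn6, a phospholipase and a phosphatase that act downstream of such adaptors, instead followed the Dclk1 sort: Plcg2 was at 490 and 1540 in Dclk1+ tumor and normal against 11.5 and 25.6 in Dclk1- tumor and normal, and Ptpn6 at 160 and 567 against 8.27 and 9.21. Over the 13 genes of the list above background in the Dclk1- pair, 3 were at least 2-fold higher in tumor and none lower, with a median of 0.03.

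Csf1r was the exception among the members. Its normalised intensity was 34.4 in Dclk1- and 44.97 in Dclk1+ tumor cells, then 58.2 in Dclk1- and 51.1 in Dclk1+ normal cells, an order opposite to that of the other genes at both ends. The log2 range over the 4 arrays was only 0.21, and no pair differed by 2-fold on either scale. Of 9 ligands and receptors of the colony-stimulating factor family on the array, 3 or 4 were above background in each sample. Csf1, the ligand of Csf1r, measured 299 in Dclk1- and 273 in Dclk1+ tumor cells, then 510 in Dclk1- and 952 in Dclk1+ normal cells, and Dclk1+ tumor was lower than Dclk1+ normal by a log2 difference of -1.29. Csf3r, the neutrophil receptor for colony-stimulating factor 3, was not above background in any of the 4 samples.

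Within tumor, then, Dclk1+ cells had lower signals than Dclk1- cells for 7 of 8 members. Differences of 2-fold or more were found for C1qa, C1qb and Il1b (3 of 8), and 0 of 8 were 2-fold higher. Over all 12197 genes above background in this pair, 2.14% were 2-fold lower and 1.77% 2-fold higher. The members' median log2 difference was -0.88, against 0.01 for all genes, and -0.46 with local background subtracted. With the arrays scaled to equal medians, 5 members were 2-fold lower (3.61% of all genes lower and 1.17% higher), and in the authors' values 6 were lower (11.2% of all genes lower and 18.2% higher).

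Within normal epithelium the direction was the opposite. Dclk1+ cells had higher signals for 6 of the 7 members above background, with 2-fold differences for C1qb and Il1b (2 of 7) and none 2-fold lower. All genes gave 5.66% higher and 5.92% lower, so 2 members of 7 are few calls to set against that share. The median of the members was 0.62, against 0.01 for all 12844 genes. In the authors' values 4 members were at least 2-fold higher, C1qa and Tyrobp among them, with 23.3% of all genes higher and 16.0% lower.

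**Figure D2:**
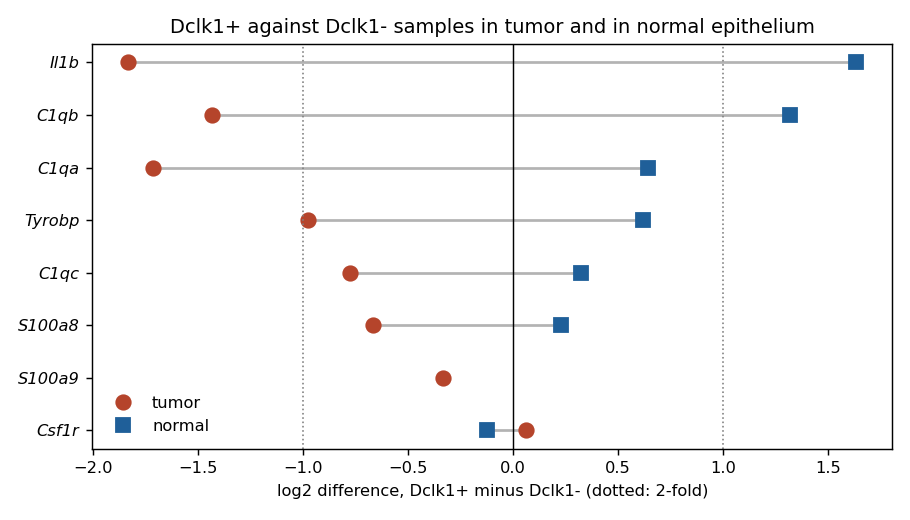
Log2 difference of Dclk1+ minus Dclk1- (x axis) for each of the 8 members in tumor (circles) and in normal epithelium (squares), 1 array per sample, with dotted lines at 2-fold. For 6 genes the tumor circle is left of zero and the normal square right of it, from Il1b (-1.83 and 1.63) to S100a8 (-0.67 and 0.23). Csf1r lies near zero in both, and S100a9 has no square because neither normal sample was above background.

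The difference of these differences, tumor minus normal, was -3.46 for Il1b, -2.75 for C1qb, -2.36 for C1qa, -1.60 for Tyrobp, -1.10 for C1qc and -0.89 for S100a8. After quantile normalization with the offset of 50, Il1b and C1qb were past 2-fold with opposite signs in tumor and normal. In the authors' values C1qa (-1.76 and 1.145) and Tyrobp (-1.63 and 1.59) were so as well, as was Tyrobp with the blank mean subtracted (-1.81 and 1.497). The difference of differences could not be tested with 1 array per group. The Dclk1- samples were further apart than the Dclk1+ samples. Between Dclk1- tumor and Dclk1- normal, 6 of 8 members were at least 2-fold higher in tumor and 0 lower, with a median of 1.61, while 5.84% of all 12340 genes were higher and 5.27% lower (median -0.02). In the same pair 8 of 17 epithelial genes were 2-fold lower and 1 higher in tumor (median -0.96), and 3 of 6 Paneth cell products, secreted by crypt-base cells, were higher and none lower (median 1.72). Paneth cell products were also lower in Dclk1+ than in Dclk1- cells, 4 of 6 in tumor (median -1.32) and 5 of 6 in normal (median -3.04). The part of these cell types in the members' values was not tested. In the authors' values, whose arrays are not level, 14.6% of all genes were higher and 29.2% lower, and 7 members were higher. Between Dclk1+ tumor and Dclk1+ normal, only S100a8 was 2-fold higher and no member 2-fold lower (1 and 0 of 8, median 0.05), against 4.27% higher and 4.2% lower among 12869 genes. The authors' values gave 2 members higher (S100a8 and S100a9) and 1 lower (Tyrobp) there, with 13.5% of all genes higher and 27.2% lower. The sign for C1qb in that pair, 0.19, turned with the scaling and was -0.02 with equal medians and 0.68 with local background subtracted. The 4 comparisons use each array in 2 of them and are not independent.

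Local background on the slide moved with several of these results. Among spots brighter than 200, the median local background was 59.8% of the spot for Dclk1- and 48.4% for Dclk1+ tumor cells, and 26.8% for Dclk1- and 25.2% for Dclk1+ normal cells. For C1qa in Dclk1- tumor the local background was 87.0% of the spot (521 of 599), for Il1b 81.2% and for S100a8 81.0%, whereas for C1qb it was 19.6% (364 of 1857). With the local background subtracted, the differences of C1qb were as large or larger, at -1.61 between the sorts in tumor, 1.35 in normal and 3.63 for Dclk1- tumor minus normal. Those of Il1b were -1.26, 1.16 and 1.93 and stayed past 2-fold. The difference of C1qa between the sorts in tumor was -0.46 after subtraction, under 2-fold. S100a8 turned to 0.14 in that pair. For Dclk1- tumor minus normal only 2 of 8 members, C1qb and Il1b, were still 2-fold higher, with 5.15% of all genes higher and 5.45% lower. The order with Dclk1- tumor highest and Dclk1- normal lowest was then found for 4 of 7 members and 8.99% of all genes. What part the local background has in the unsubtracted values was not tested.

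**Figure D3:**
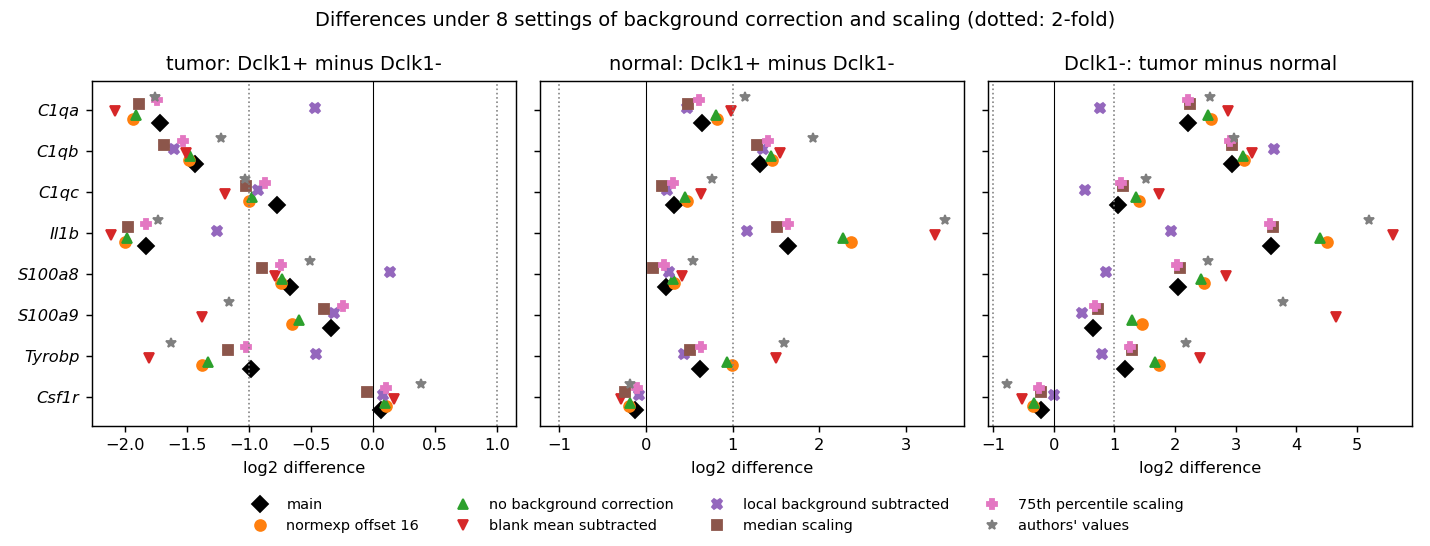
Log2 differences of the 8 members (x axis) in 3 comparisons under 8 ways of correcting the background and scaling the arrays; dotted lines mark 2-fold, and S100a9 is left out of the normal panel because it was not above background there. C1qb and Il1b keep their side of zero and their 2-fold size in all 8 settings of each panel, while in tumor C1qa is at -0.46 and S100a8 at 0.14 when local background is subtracted.

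Other genes of the same cells give a wider view. Of 30 further macrophage and monocyte genes on the array, 25 were above background in Dclk1- and 22 in Dclk1+ tumor cells, 19 in Dclk1- and 21 in Dclk1+ normal cells, and their summed normalised intensity was 3608, 3036, 2976 and 4479. A large part of each sum came from a single gene, Ctsb, at 1617, 2107, 2187 and 2941 in that order. The order of the sums therefore leans on Ctsb. In the Dclk1- pair 7 of 26 genes of the list were at least 2-fold higher in tumor and none lower (median 0.30). Within tumor 4 of 27 were lower and none higher in Dclk1+ cells (median -0.19). Within normal 1 of 21 was higher and 1 lower, with a median of 0.07 against the members' 0.62. Apoe, a lipid carrier that macrophages make, measured 348 in Dclk1- and 47.6 in Dclk1+ tumor cells, then 106 in Dclk1- and 111 in Dclk1+ normal cells. Folr2, a folate receptor of resident macrophages, was at 202, 89.5, 53.9 and 191 in that order, which is the order of the C1qb levels. Aif1, a calcium-binding protein of macrophages, was instead highest in Dclk1+ normal (830, against 398, 329 and 160 in Dclk1- tumor, Dclk1+ tumor and Dclk1- normal). Among defining markers, Adgre1 (F4/80) and Itgam (CD11b) were not above background in any sample. Cd163 was above background only in Dclk1- tumor (4.14), while Cd68 was present in all at 26.9 to 45.9. These markers were picked with their values known, and others of the list were brightest in Dclk1- tumor. Ms4a7 reached 188 there (46.3 in Dclk1+ tumor, 52.2 in Dclk1- normal, 96.1 in Dclk1+ normal). Cx3cr1 reached 56.1 there (4.19, 6.31 and 16.8 likewise). Mrc1 and Fcgr1 were above background in the tumor samples alone. Mertk was instead highest in Dclk1- normal (104, against 93.5 in Dclk1- tumor).

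Neutrophil genes beyond calprotectin were present in part. Of 25 on the array, between 12 (Dclk1- normal) and 16 (both Dclk1+ samples) were above background, with sums of 2598 in Dclk1- and 1675 in Dclk1+ tumor cells, then 223 in Dclk1- and 634 in Dclk1+ normal cells. The granule enzyme genes Mpo and Prtn3 and the receptor genes Cxcr2 and Csf3r were not above background in any sample. They were picked with their values known, and other genes of the list were brightest in Dclk1- tumor. Retnlg reached 86.6 there (28.8 in Dclk1+ tumor, 16.5 in Dclk1- normal, 20.4 in Dclk1+ normal). Trem1 reached 25.3 (9.24 to 12.6 elsewhere) and Ly6g 28.4 (18.2 to 21.5 elsewhere). Mmp8 was above background in Dclk1- tumor alone (15.1). Fpr1 was instead highest in Dclk1- normal (75.1, against 29.3 in Dclk1- tumor). In the Dclk1- pair 4 of 15 genes were 2-fold higher in tumor and none lower (median 0.69). Lcn2, an iron-binding protein that inflamed epithelium also makes, measured 1630 in Dclk1- and 974 in Dclk1+ tumor cells, then 25.9 in Dclk1- and 18.6 in Dclk1+ normal cells, and took most of the sum in tumor. Cxcl2, a neutrophil-attracting chemokine, stood at 367, 84.3, 8.75 and 26.5. Stfa1, a cysteine protease inhibitor, went with the Dclk1+ sort (149 in tumor and 197 in normal) and was not above background in either Dclk1- sample.

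Genes shared by all leukocytes split between both patterns. Cd52, a surface glycoprotein of leukocytes, measured 799 in Dclk1- and 202 in Dclk1+ tumor cells, then 93.4 in Dclk1- and 643 in Dclk1+ normal cells, highest and lowest in the same samples as the 6 members. Ptprc, which encodes CD45, was at 14.8, 70.5, 6.13 and 169, and so was higher in the Dclk1+ sample of both tissues. Rac2, a small GTPase of blood cells that tuft cells also express, was at 25.4, 645, 6.53 and 5108. The list as a whole had 5 of 15 genes at least 2-fold higher and none lower in Dclk1+ normal against Dclk1- normal, and 1 higher and 2 lower in tumor.

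Lymphoid lists held few 2-fold differences. Over all genes, 1.77% were 2-fold higher and 2.14% lower between the sorts in tumor, and 5.66% and 5.92% in normal. In the Dclk1- pair the shares were 5.84% and 5.27%. With lists this short, counts of 0 or 1 are near these shares and show nothing particular to lymphoid genes. T and NK cell genes had 0 of 12 genes 2-fold apart between the sorts in tumor and 0 of 14 in normal, and 1 of 13, Cd8a, was lower in Dclk1- tumor than in Dclk1- normal. The offset makes the differences of such dim genes smaller. Their summed normalised intensity was 193 in Dclk1- and 173 in Dclk1+ tumor cells, then 605 in Dclk1- and 376 in Dclk1+ normal cells. Ccl5 made up 118, 56.4, 292 and 131 of these sums in that order, and Cd8a 7.69, 6.30, 126 and 67.1. The sum was thus highest in Dclk1- normal. B and plasma cell genes had 0 of 8 in tumor, 0 of 8 in normal and 0 of 7 in the Dclk1- pair, and Sdc1 was higher in Dclk1+ tumor than in Dclk1+ normal (1.41). In the mast cell, basophil and eosinophil list, Mcpt2 was higher in Dclk1+ than in Dclk1- normal cells (1.19), and Siglecf was at 411 in the former and not above background in the latter. Siglecf was also at 32.1 in Dclk1+ tumor and not above background in Dclk1- tumor, so it went with the Dclk1+ sort in both tissues. From the same list, Epx was not above background in any sample, and Prg2 was dim in all (5.93 to 8.90). Of the dendritic cell and MHC class II genes, 3 of 9 were lower and none higher in Dclk1+ than in Dclk1- normal cells (median -0.06), 1 of 8 was lower within tumor (median 0.03) and 2 of 8 were lower in Dclk1- tumor than in Dclk1- normal (median -0.32). Within that list H2-Aa stood at 15340 in Dclk1- normal, 1593 in Dclk1+ normal, 2238 in Dclk1- tumor and 380 in Dclk1+ tumor, so that its highest sample was the one in which 6 members were lowest. Irf8 and Cd74 were also highest in Dclk1- normal, at 269 and 827.

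**Figure D4:**
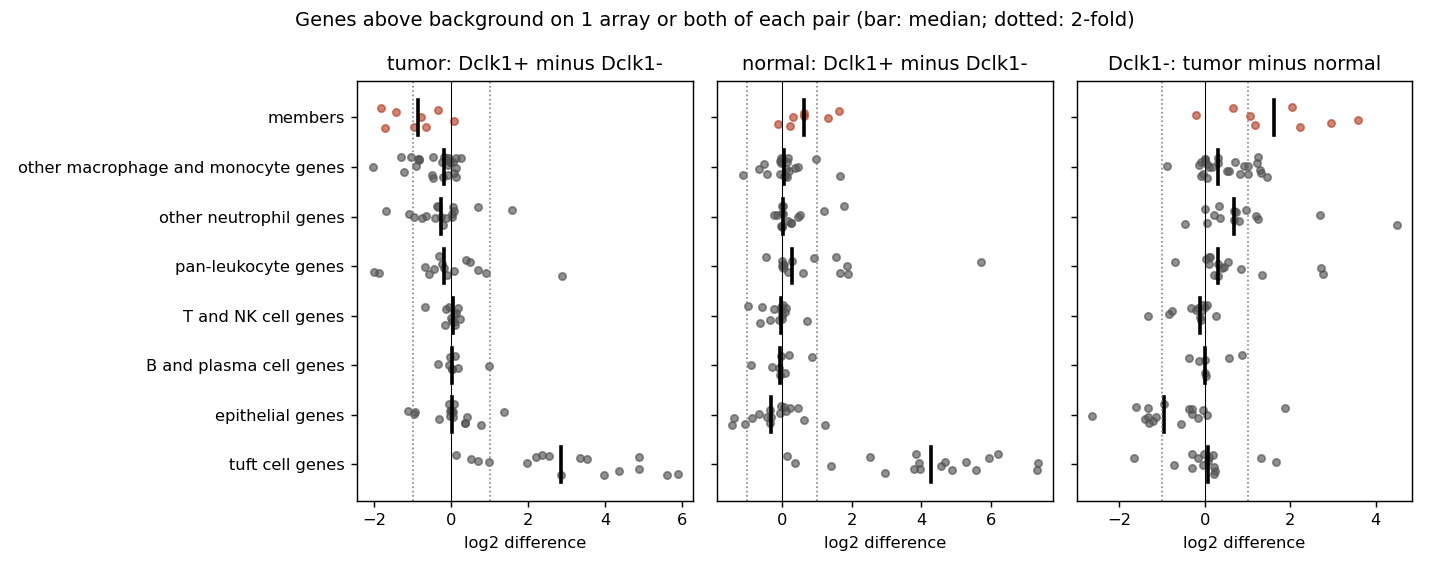
Log2 differences (x axis) of single genes above background on at least 1 array of the pair, for the members and 7 other gene lists, with a bar at the median and dotted lines at 2-fold. The members' median is -0.88 within tumor, 0.62 within normal and 1.61 for Dclk1- tumor minus normal, while the T and NK and the B and plasma cell medians lie within 0.10 of zero in all 3 panels and tuft cell genes lie far to the right in both comparisons of the sorts.

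Complement genes other than C1q showed no common direction. Of 15 on the array, 2 of 14 above background were higher and 1 lower in Dclk1- tumor than in Dclk1- normal. Serping1, the inhibitor of the C1 complex of which C1q is a part, measured 328 in Dclk1- and 120 in Dclk1+ tumor cells, then 4.30 in Dclk1- and 7.15 in Dclk1+ normal cells. It separated tumor from normal in both sorts. Cd55, a membrane inhibitor of complement, was highest in Dclk1- normal (1058, against 254, 173 and 61.7 in Dclk1+ normal, Dclk1- tumor and Dclk1+ tumor). C1qbp, a mitochondrial protein named for binding C1q, had its lowest level in Dclk1+ normal (94.9, against 748 to 1151 in the other samples).

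The genes most like the members over the 4 arrays were found by the distance between log2 values centred on each gene's mean, over 13457 genes. For Il1b the closest was Ms4a6d (distance 0.23), with levels of 1527 in Dclk1- and 443 in Dclk1+ tumor cells, then 113 in Dclk1- and 478 in Dclk1+ normal cells, followed by Vcam1 (0.53), Anxa10 (0.63), Fcer1g (0.80) and Rgs1 (0.83). For the mean of the C1q genes they were Nubpl (0.35), Ms4a6b (0.35), Phlda2 (0.39), Cse1l (0.40) and Slc15a3 (0.40). Ms4a6b was at 328, 66.3, 37.3 and 94.7 in that order of samples. For calprotectin the closest were Diaph2 (0.08), Sox17 (0.12), Gnpda2 (0.14), Rpl39 (0.15) and Gas5 (0.16). The calprotectin profile averages S100a8 with the dim S100a9. With 4 arrays, a likeness of this kind describes these samples only.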

How the data were processed

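Expression was measured on 4 one-colour (Cy5) arrays, 1 for each sorted sample. Per the file headers, the scanner files hold the median intensity at 635 nm of spots and of the local background around them, joined from 3 gains by straight lines, with nothing subtracted. The series table deposited by the authors holds intensity values scaled to a median of 24.99 to 25.01 per array, with dim probes left empty; the sources used here do not give the steps. Spot intensities were corrected with normexp (offset 50) in limma 3.58.1 (R 4.3.3), flagged spots were left out (3 in Dclk1- tumor and 1 in Dclk1- normal), and quantile normalization over the 4 arrays was followed by log2. The script was tested on simulated data with large changes put on bright probes. That test does not cover small differences or dim probes. Differences are calls at 2-fold or more, among genes above the mean of 2736 blank spots plus 2 SD on at least 1 array of a pair. Genes with several probes used the brightest. Symbols came from the platform table (16631 of 23473 probes with 1 symbol, 6842 unnamed here, 0 columns unused) and were updated through RefSeq for GRCm38.p6. Probe sequences were not used here, so probes of related genes could share RNA. The members and gene lists were chosen with earlier results of these data known. From each other list, the text names up to 3 genes with the largest difference of at least 2-fold, genes whose products form a complex with a member and, chosen after their values were seen, defining markers at or near background and further list genes that complete a comparison. The number of arrays limits the precision. Alternatives changed the background correction, scaling, filter, probe rule and threshold.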

Additional observations from a re-analysis of the deposited data

Results flagged for a closer look

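Il1b and C1qb were singled out because their Dclk1+ minus Dclk1- differences were past 2-fold and of opposite sign in tumor and in normal epithelium. For Il1b the tumor minus normal difference of these differences was -3.46 on the log2 scale, and for C1qb it was -2.75. With 1 array per group the difference was not tested. Over 8 other settings, added after seeing the data, it ranged from -5.44 to -2.42 for Il1b and from -3.15 to -2.75 for C1qb. In 1 of these settings, the mean of probes, it could not change, because each member has 1 probe.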

How the results depend on the processing

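No paired analysis was possible because each group has 1 array, and for the same reason no replicate could be left out. The direction of the members' median did not change within tumor, within normal and in the Dclk1- pair under the other corrections, scalings and filters tried. The probe rule could not change it, because each member has 1 probe. Within tumor the median was -1.19 with an offset of 16, -1.15 with no background correction, -1.44 with the blank mean subtracted, -1.10 with median scaling and -1.19 in the authors' values, all past 2-fold. The members 2-fold lower there numbered 5 with an offset of 16 (4.68% of all genes), 6 with the blank mean subtracted (15.9%), 5 with median scaling (3.61%), 6 in the authors' values (11.2%) and 2 with local background subtracted (3.02%). At 1.5-fold they were 6 and at 4-fold 0. No share of all genes was taken at these thresholds, here or for the pairs that follow. The counts at these thresholds therefore cannot be set against all genes. Within normal the authors' values gave a median of 1.145 and 4 members higher (23.3% of all genes), and the thresholds of 1.5-fold and 4-fold gave 4 and 0. Between the Dclk1+ samples the median, near zero, was -0.014 with median scaling, -0.034 with 75th percentile scaling and -0.18 in the authors' values. Members higher there were 2 with the blank mean subtracted (18.1% of all genes), 0 with local background subtracted (3.85%), 2 in the authors' values (13.5%, with 1 member and 27.2% of all genes lower) and 0 at 4-fold. In the Dclk1- pair, local background subtraction gave a median of 0.78 and 2 members higher (5.15% of all genes). The cause of these shifts was not tested. The last count covers the differences of single members and their differences of the Dclk1 differences under other settings. It leaves out those of S100a9 that rest on both normal samples. Of these, 324 kept their direction and side of the 2-fold threshold, 26 newly passed it, 8 no longer did and 8 changed sign. The 324 include the filter and probe rule settings, which could not change a single difference, because each member has 1 probe and a filter leaves its values as they are.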
